A study of Homo sapiens with 12 samples.

Results

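The aminoacyl-tRNA synthetases, the enzymes that join each amino acid to its transfer RNA, were followed as 40 gene names taken by symbol from the 61209 names of a count table. They comprise 19 cytosolic enzymes, 16 mitochondrial enzymes, the additional threonyl-tRNA synthetase gene TARS3, and 4 partners. Of the 40, 39 had enough counts to be tested among 18526 gene names, and VARS2 had 0 counts in every library. RNA was sequenced from A375, an established human melanoma cell line, in 12 libraries. The 4 groups of 3 libraries were OGDH-depleted cells starved of glucose for 5 h, OGDH-depleted cells with glucose, control cells starved of glucose for 5 h, and control cells with glucose. OGDH encodes a subunit of the mitochondrial 2-oxoglutarate dehydrogenase complex. The titles write KO where the series text writes knockdown, so "OGDH-depleted" is used for both. The labels give neither the number of clones nor the treatment of the control cells.

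Most cytosolic synthetases carry names ending in 1, and a separate set of nuclear genes with names ending in 2 encodes the enzymes that are imported into mitochondria, where they charge the tRNAs of the mitochondrial ribosome. Several cytosolic enzymes sit together in the multi-synthetase complex on the scaffold proteins AIMP1, AIMP2 and EEF1E1, and XPOT carries tRNAs out of the nucleus. A tRNA left without its amino acid activates the kinase GCN2, which slows translation and raises the transcription factor ATF4. Many cytosolic synthetase genes are known ATF4 targets.

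The element through which ATF4 and C/EBP proteins are known to bind DNA was searched for as TGATGNAAN, on both strands, in RefSeq promoters (build GRCh38.p14) that reach from 250 bases before to 50 bases after a start site. A promoter was at hand for 34 of the 40 members. The letters were present in 7 of 16 cytosolic members, in 1 of 14 mitochondrial members and in 0 of 4 partners, against 4.45% of 27305 genes. The 8 matches are shown with 10 bases on each side, because most of the cytosolic ones share all but the last letter. Each line runs 5′ to 3′ on the strand that spells the element, which is in capitals.
AARS1: ctaacttggcTGATGCAACtgcgagaaaa
CARS1: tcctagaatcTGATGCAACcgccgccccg
IARS1: cgcacggaggTGATGCAACgcgctgaaaa
NARS1: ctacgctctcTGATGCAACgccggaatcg
TARS1: ctggaccagcTGATGCAATcgaaaggcgc
GARS1: gctcggagcaTGATGAAATcgccgcgtaa
MARS1: aatccctcgcTGATGCAACcggaaccggc
YARS2: tccacactgcTGATGGAAAaattaagttt
Of the 7 cytosolic matches, 6 held the shorter form TTGCATCA on the other strand, overlapping the first search; it was present in 0 mitochondrial members and in 1.08% of genes. GARS1 and the mitochondrial enzyme gene YARS2 differ from the others inside the element. The windows lie at chr16:70289676-70289704 for AARS1, chr11:3057408-3057436 for CARS1, chr9:92293693-92293721 for IARS1 and chr18:57621804-57621832 for NARS1. Those of TARS1, GARS1, MARS1 and YARS2 lie at chr5:33440956-33440984, chr7:30594834-30594862, chr12:57488053-57488081 and chr12:32756076-32756104. The windows of AARS1, CARS1 and IARS1 are on the plus strand and the other 5 on the minus strand. The element began near the start site in IARS1 (position -14 on the gene's own strand), MARS1 (-5), CARS1 (-3), TARS1 (2), NARS1 (15) and GARS1 (-34), and farther from it in AARS1 (-188) and YARS2 (-197). A match is a description of the letters and was not tested as a binding site.

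The whole promoters of IARS1 (chr9:92293648-92293947, minus strand) and MARS1 (chr12:57487818-57488117, plus strand) are given because both hold the element at the start site (it ends before the start in IARS1 and runs across it in MARS1), while their levels differed in starved control cells, as described further on. Each is written on the strand of its gene, with the element in capitals as it reads there.
IARS1: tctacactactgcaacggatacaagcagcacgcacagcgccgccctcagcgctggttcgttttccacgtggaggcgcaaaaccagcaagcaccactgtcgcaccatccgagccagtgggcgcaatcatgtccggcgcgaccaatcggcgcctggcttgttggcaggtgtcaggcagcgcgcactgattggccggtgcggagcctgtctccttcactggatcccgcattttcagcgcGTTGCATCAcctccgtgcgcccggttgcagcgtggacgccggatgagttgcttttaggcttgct
MARS1: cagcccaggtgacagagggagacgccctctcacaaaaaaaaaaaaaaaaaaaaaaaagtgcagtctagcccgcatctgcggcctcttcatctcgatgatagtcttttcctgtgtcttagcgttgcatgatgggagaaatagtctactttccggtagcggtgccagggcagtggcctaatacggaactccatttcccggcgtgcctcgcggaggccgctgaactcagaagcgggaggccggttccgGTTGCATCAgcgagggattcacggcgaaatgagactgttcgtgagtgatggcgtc
Both spell GTTGCATCA, the reverse complement of the searched letters.

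Libraries held 21556273 to 25546615 counted fragments, of which the members took 0.622% to 0.879%. OGDH averaged 32.8 ± 0.90 CPM in starved OGDH-depleted and 39.8 ± 4.68 CPM in OGDH-depleted cells, against 131 ± 2.01 CPM in starved control and 154 ± 11.9 CPM in control cells, where CPM is the count per 1000000 of the scaled library size and ± is the SD over 3 libraries. Of 9 melanoma markers, 8 were tested: SOX10 averaged 348 to 633 CPM and MITF 25.9 to 44.2 CPM over the groups, MLANA, PMEL and S100B lay between 0.50 and 1.82 CPM in every library, and TYR was near 0, so the check of the labelled cell line rests on SOX10 and MITF. TYRP1 was called higher, and SOX10 and S100B lower, in starved control than in control cells. TYRP1 and S100B had few counts, at 2 to 53 and 12 to 42 per library. TYRP1 averaged 2.57 CPM in starved control and 0.22 CPM in control cells. DCT averaged 0.13 to 0.47 CPM and S100A1 1.25 to 2.57 CPM over the groups. Of 5 markers of other cell types, only PECAM1 had enough counts to be tested, at 0.17 to 0.56 CPM. Starved OGDH-depleted replicate 3, starved control replicate 3 and control replicate 2 stood apart from their groups. The slope of log2 CPM on transcript GC content was -0.26, 0.14 and -0.24 per 10 percentage points in those 3 libraries; in the other libraries it was -0.056 to 0.067 for starved OGDH-depleted, 0.14 to 0.15 for OGDH-depleted, -0.21 to -0.17 for starved control and 0.12 to 0.17 for control. Mitochondrially encoded RNA took 9.71%, 4.11% and 14.6% of their counts, against 3.06% to 5.12%, 13.2% to 14.4% and 4.97% to 6.35% in the other libraries of the same groups. In GC slope and mitochondrial RNA, control replicate 2 was thus close to starved control replicates 1 and 2, and starved control replicate 3 was close to control replicates 1 and 3; the labels were kept as given. Fold changes below come from a fit with all 12 libraries, and each comparison is also given without these 3.

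Summed over each class, cytosolic enzyme messages were highest in starved control cells, and mitochondrial enzyme messages had their lowest mean there. Summed over the 19 cytosolic enzymes, the level was 6362 ± 104 CPM in starved OGDH-depleted, 5976 ± 51.0 CPM in OGDH-depleted, 8418 ± 176 CPM in starved control and 5029 ± 105 CPM in control cells. The 16 mitochondrial enzymes summed to 662 ± 58.2, 688 ± 20.01, 578 ± 45.4 and 697 ± 53.8 CPM in the same 4 groups. These sums overlapped: starved control replicate 3 had 630 CPM, against 600 CPM in starved OGDH-depleted replicate 3. The median CPM over the mitochondrial enzymes was higher in starved control than in control libraries. It was 33.1, 33.6 and 34.0 CPM, against 30.0, 29.8 and 30.2 CPM. The ratio of the cytosolic to the mitochondrial sum was 8.78, 9.66 and 10.5 in starved OGDH-depleted libraries and 8.78, 8.96 and 8.35 in OGDH-depleted libraries. It was 15.2, 15.7 and 13 in starved control libraries, against 6.68, 8.08 and 7.01 in control libraries. The 3 starved control libraries therefore lay above all 9 others, and the starved OGDH-depleted libraries overlapped the fed OGDH-depleted ones. The ratio is a description and was not tested, and in bulk RNA a change in the mix of cells and a change in RNA per cell cannot be told apart.

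**Figure D1:**
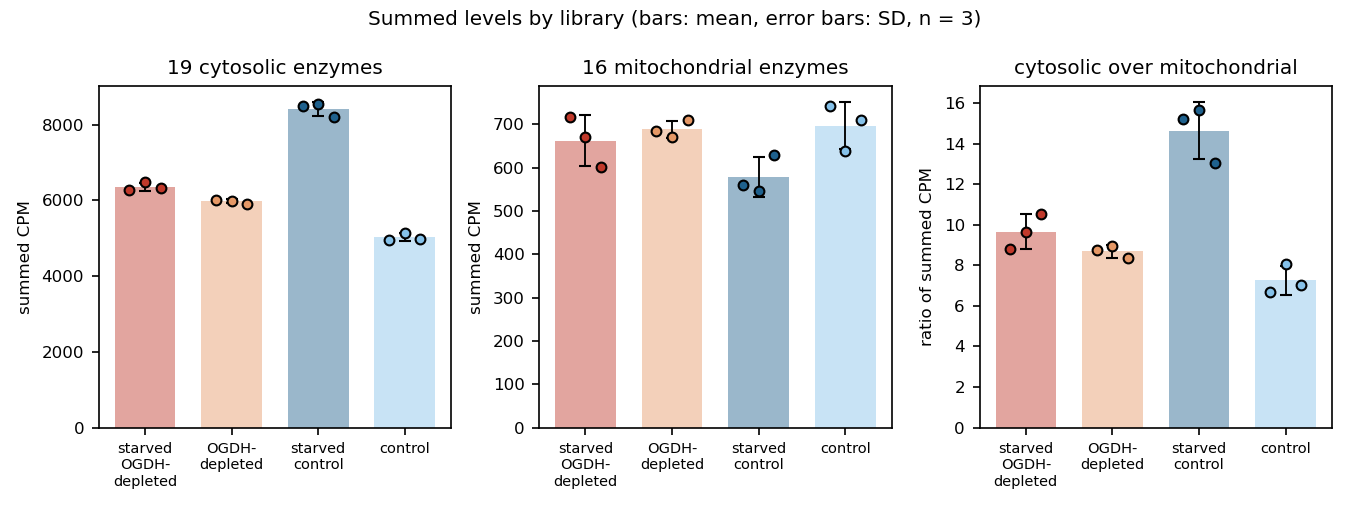
Summed CPM of the 19 cytosolic and 16 mitochondrial enzymes and the ratio of these sums (y axes) in each of the 4 groups (x axis); points are libraries, bars the group mean and error bars the SD of 3 libraries. Starved control libraries stand highest for the cytosolic sum and for the ratio, at 13 to 15.7, against 6.68 to 8.08 in control libraries.

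Per kilobase of the deposited exon length, the scale on which different genes can be compared, cytosolic enzymes were several times as abundant as mitochondrial ones in every group. The median over the cytosolic enzymes was 50.6, 47.9, 59.2 and 37.2 CPM per kb in starved OGDH-depleted, OGDH-depleted, starved control and control cells, while that over the mitochondrial enzymes was 5.56, 6.42, 5.31 and 6.39 CPM per kb. In control cells the highest cytosolic levels were those of FARSA, TARS1 and NARS1, at 194, 108 and 107 CPM per kb, and TARS1 and NARS1 differed by less than their spread. In starved control cells TARS1 reached 204 CPM per kb and FARSA stood at 185 CPM per kb. The most abundant mitochondrial enzyme in all 4 groups was IARS2, at 37.0, 33.9, 29.8 and 37.5 CPM per kb. The exon length counts every exon of a name once, so names with many alternative exons, such as IARS1 with 22418 bases, read low on this scale.

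Glucose starvation raised 11 of the 19 cytosolic enzymes in control cells and lowered 0. Of the 15 tested mitochondrial enzymes, 1 rose and 3 fell, while 17% of all 18526 tested genes rose and 17.5% fell (edgeR quasi-likelihood test, adjusted p under 0.05). The median log2 fold change was 0.62 over the cytosolic and -0.27 over the mitochondrial enzymes, beside -0.02 over all tested genes. The enzymes that rose were those for tryptophan (WARS1), glycine (GARS1), serine (SARS1), cysteine (CARS1), alanine (AARS1), isoleucine (IARS1), threonine (TARS1), glutamate and proline (EPRS1), tyrosine (YARS1), asparagine (NARS1) and leucine (LARS1). Those for valine, methionine, phenylalanine (FARSA and FARSB, its 2 subunits), histidine, lysine, arginine and glutamine did not pass the threshold. In 11 of the 19 cytosolic enzymes the 3 starved control libraries all lay above the 3 control libraries, which held for 19.4% of all tested genes; in 4 of the 15 mitochondrial enzymes they all lay below, as in 20.8%.

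WARS1 (chr14:100333790-100376805, minus strand; coordinates of names are those of the deposited table, hg38) showed the largest rise. Its level was 668, 741 and 593 CPM in starved control libraries, against 188, 217 and 199 CPM in control libraries. In OGDH-depleted cells it was 317, 366 and 362 CPM starved, against 313, 309 and 292 CPM fed. Starvation thus raised WARS1 3.32-fold in control cells (log2 fold change 1.73 ± 0.11 SE, edgeR adjusted p = 4.8e-07), and its value in starved OGDH-depleted cells, 0.20 ± 0.11, did not pass the threshold. Of its exon bases, 10.6% are shared with WDR25 and another name, and fragments there were left out.

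GARS1 (chr7:30580533-30634033, plus strand) makes both the cytosolic and the mitochondrial glycyl-tRNA synthetase, so the table cannot divide its fragments between the compartments. It had 1113, 1072 and 815 CPM in starved control libraries, against 293, 432 and 319 CPM in control libraries. In OGDH-depleted cells it had 443, 526 and 590 CPM starved, against 454, 462 and 423 CPM fed. GARS1 rose 2.87-fold in starved control cells (log2 fold change 1.52 ± 0.17 SE, adjusted p = 4.52e-05). KARS1, the lysyl-tRNA synthetase that likewise serves both compartments, had 347, 329 and 364 CPM in starved control libraries, against 325, 300 and 317 CPM in control libraries, groups that did not overlap but gave a log2 fold change of 0.14 and an adjusted p of 0.24. In OGDH-depleted cells KARS1 had 362, 339 and 308 CPM starved, against 303, 293 and 308 CPM fed.

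SARS1 (chr1:109213918-109238182, plus strand), the seryl-tRNA synthetase, had 397, 406 and 454 CPM in starved control libraries, against 189, 161 and 196 CPM in control libraries. With OGDH depleted it had 290, 306 and 265 CPM starved, against 288, 297 and 281 CPM fed. SARS1 rose 2.30-fold in starved control cells (log2 fold change 1.2 ± 0.10 SE, adjusted p = 5.32e-06), and in OGDH-depleted cells the starved and fed libraries overlapped. AARS1 (chr16:70251983-70289707, minus strand), the alanyl-tRNA synthetase, had 479, 467 and 643 CPM in starved control libraries, against 282, 210 and 260 CPM in control libraries, and its log2 fold change was 1.08 ± 0.16 SE (adjusted p = 0.000299). In OGDH-depleted cells AARS1 had 389, 353 and 289 CPM starved, against 344, 351 and 363 CPM fed. Replicate 3, one of the libraries that stand apart, was the highest of the starved control group for AARS1 and the lowest of the starved OGDH-depleted group.

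CARS1 (chr11:3000922-3057613, minus strand), the cysteinyl-tRNA synthetase, was far less abundant. It had 28.8, 39.7 and 22.9 CPM in starved control libraries, against 12, 17.4 and 13.4 CPM in control libraries. Starved OGDH-depleted libraries held 16, 23.5 and 24.8 CPM of CARS1, against 16, 19.3 and 16.7 CPM in fed OGDH-depleted libraries. It rose with a log2 fold change of 1.09 ± 0.23 SE (adjusted p = 0.00311) in control cells, where the groups did not overlap, and did not pass the threshold in OGDH-depleted cells, where they did.

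IARS1 (chr9:92210207-92293854, minus strand), the isoleucyl-tRNA synthetase of the multi-synthetase complex, had 903, 861 and 780 CPM in starved control libraries, against 377, 475 and 389 CPM in control libraries. In OGDH-depleted cells IARS1 had 529, 579 and 610 CPM starved, against 484, 481 and 460 CPM fed. It rose 2.05-fold in control cells (log2 fold change 1.04 ± 0.11 SE, adjusted p = 3.04e-05); in OGDH-depleted cells the groups also did not overlap, but the log2 fold change of 0.27 ± 0.11 did not pass (adjusted p = 0.17). TARS1 (chr5:33440696-33468091, plus strand), the threonyl-tRNA synthetase, had 911, 936 and 760 CPM in starved control libraries, against 405, 547 and 424 CPM in control libraries. In OGDH-depleted cells TARS1 had 489, 545 and 605 CPM starved, against 483, 486 and 467 CPM fed. TARS1 rose 1.90-fold in starved control cells (log2 fold change 0.92 ± 0.13 SE, adjusted p = 0.000296).

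EPRS1 (chr1:219968600-220046530, minus strand) is one protein with both a glutamyl- and a prolyl-tRNA synthetase, and is part of the complex. It had 509, 498 and 461 CPM in starved control libraries, against 255, 321 and 249 CPM in control libraries. In OGDH-depleted cells EPRS1 had 361, 361 and 406 CPM starved, against 336, 323 and 341 CPM fed. It rose 1.78-fold in starved control cells (log2 fold change 0.83 ± 0.11 SE, adjusted p = 0.000147), with no overlap of the groups. YARS1, NARS1 and LARS1 rose less, by log2 fold changes of 0.70, 0.62 and 0.56. The starved control and control libraries of LARS1 overlapped, and its call was lost without control replicate 1 or 3 or starved control replicate 1 or 2, with log2 fold changes of 0.44 to 0.52 and adjusted p = 0.081 to 0.10.

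The cytosolic enzymes that moved least in starved control cells were RARS1, FARSA and KARS1. RARS1, the arginyl-tRNA synthetase, had 223, 240 and 185 CPM in starved control libraries, against 187, 243 and 195 CPM in control libraries, and 200, 211 and 230 CPM in starved against 184, 186 and 190 CPM in fed OGDH-depleted libraries. FARSA, the catalytic subunit of the phenylalanyl-tRNA synthetase, had 403, 427 and 517 CPM in starved control libraries, against 501, 372 and 542 CPM in control libraries, and 557, 579 and 427 CPM in starved against 572, 595 and 522 CPM in fed OGDH-depleted libraries. The groups overlapped for both genes under starvation of control cells. QARS1, the glutaminyl-tRNA synthetase, has no mitochondrial counterpart of its own, because mitochondria form glutaminyl-tRNA by amidation. QARS1 had 183, 170 and 230 CPM in starved control libraries, against 255, 169 and 238 CPM in control libraries, the lowest log2 fold change of the cytosolic class at -0.18 (adjusted p = 0.42). In OGDH-depleted cells QARS1 had 292, 260 and 219 CPM starved, against 261, 257 and 269 CPM fed.

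Within the cytosolic class, 8 of 12 free enzymes rose in starved control cells, against 3 of 7 enzymes of the multi-synthetase complex. Of the enzymes with a class I catalytic fold, 5 of 9 rose, and of those with a class II fold 5 of 9 rose, while EPRS1 holds one of each and rose. Among 12 cytosolic enzymes commonly listed as ATF4 targets, 11 were called higher, with a median log2 fold change of 0.98, and among the 7 not so listed 0 passed, with a median of 0.14 and 1 at an unadjusted p under 0.05 (edgeR). MARS1 was the listed enzyme that did not pass in this fit, and its values in fits with a GC term are given further on. This list was written with earlier results of these data known, so the split is a description.

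Of the 7 cytosolic genes with the element shown above in a promoter, 6 were called higher when control cells were starved, with a median log2 fold change of 1.04. Of the 9 with a promoter but no such letters, 3 were called higher, with a median of 0.23, while 17% of all tested genes rose. The 3 were WARS1, SARS1 and EPRS1, so the largest rise came from a gene without these letters in its window. LARS1 and YARS1, both called higher, and VARS1 had no promoter at hand and are in neither count. CARS1, GARS1 and TARS1 each have another listed promoter without the element. The split was not tested. MARS1 (chr12:57475445-57517569, plus strand), the methionyl-tRNA synthetase, held them. It had 408, 382 and 563 CPM in starved control libraries, against 441, 290 and 395 CPM in control libraries, with a log2 fold change of 0.26 ± 0.18 SE and an adjusted p of 0.29. In OGDH-depleted cells MARS1 had 595, 523 and 445 CPM starved, against 558, 526 and 554 CPM fed. Of its exon bases, 13.3% are shared with DDIT3, ARHGAP9 and a microRNA name; DDIT3 rose by 3.70 on the log2 scale in starved control cells, and fragments from the shared bases were left out of both genes.

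Among mitochondrial enzymes, WARS2 (chr1:119031216-119140654, minus strand), the mitochondrial tryptophanyl-tRNA synthetase, was the one that rose in starved control cells. It had 34.0, 34.8 and 32.7 CPM in starved control libraries, against 14.2, 20.9 and 15.7 CPM in control libraries. In OGDH-depleted cells WARS2 had 21.6, 23.2 and 27 CPM starved, against 18.1, 17.6 and 19.4 CPM fed. The log2 fold change of WARS2 was 0.996 ± 0.14 SE in control cells (adjusted p = 0.000264) and 0.38 ± 0.14 in OGDH-depleted cells (adjusted p = 0.13), with no overlap of starved and fed libraries in either. Both tryptophan enzymes thus rose in starved control cells.

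LARS2 (chr3:45388561-45554726, plus strand), the mitochondrial leucyl-tRNA synthetase, fell. It had 35.0, 37.2 and 45.1 CPM in starved control libraries, against 81.4, 58.7 and 82.5 CPM in control libraries, and its log2 fold change was -0.92 ± 0.15 SE (adjusted p = 0.000615). In OGDH-depleted cells LARS2 had 67.7, 64.9 and 54.0 CPM starved, against 67.3, 67.0 and 64.1 CPM fed, groups that overlapped. TARS2 (chr1:150487414-150507602, plus strand), the mitochondrial threonyl-tRNA synthetase, had 36.8, 36.6 and 42.6 CPM in starved control libraries, against 75.7, 59.4 and 70.0 CPM in control libraries (log2 fold change -0.82 ± 0.13 SE, adjusted p = 0.000503). In OGDH-depleted cells TARS2 had 74.8, 70.7 and 55.9 CPM starved, against 71.0, 69.4 and 69.6 CPM fed. Starved control libraries of LARS2 and TARS2 were below every library of the other 3 groups. IARS2, the mitochondrial isoleucyl-tRNA synthetase, fell less, with 128, 117 and 124 CPM in starved control libraries, against 158, 162 and 146 CPM in control libraries. In OGDH-depleted cells IARS2 had 161, 147 and 151 CPM starved, against 138, 134 and 149 CPM fed. Its log2 fold change in control cells was -0.33 ± 0.09 SE (adjusted p = 0.0113), and without starved control replicate 2 it was -0.29 with an adjusted p of 0.051.

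The mitochondrial enzymes that moved least in starved control cells were NARS2, YARS2 and FARS2. NARS2, for asparagine, had 21.2, 19.5 and 24 CPM in starved control libraries, against 24.7, 20.1 and 20.4 CPM in control libraries, and 21.7, 20.4 and 20.2 CPM in starved against 18.8, 19.1 and 21.4 CPM in fed OGDH-depleted libraries. YARS2, for tyrosine, had 34.2, 33.1 and 33.2 CPM in starved control libraries, against 29.8, 34.3 and 29.8 CPM in control libraries, and 31.5, 34.7 and 33.3 CPM in starved against 30.9, 29.1 and 30.9 CPM in fed OGDH-depleted libraries. The starved control and control libraries of NARS2 and of YARS2 overlapped. The other 8 mitochondrial enzymes that did not pass (AARS2, CARS2, EARS2, HARS2, MARS2, PARS2, RARS2 and SARS2) had log2 fold changes of -0.57 to 0.43. Without the 3 libraries that stand apart, 9 mitochondrial enzymes were called lower and 2 higher, and 13 cytosolic enzymes were called higher and 2 lower (FARSA at -0.34 and QARS1 at -0.49), while 60.5% of 18776 tested genes were called in either direction, against 34.5% with all libraries. The libraries that then remain have GC slopes of -0.21 to -0.17 in starved control and 0.12 to 0.17 in control cells, so GC slope and starvation cannot be told apart in that comparison.

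**Figure D2:**
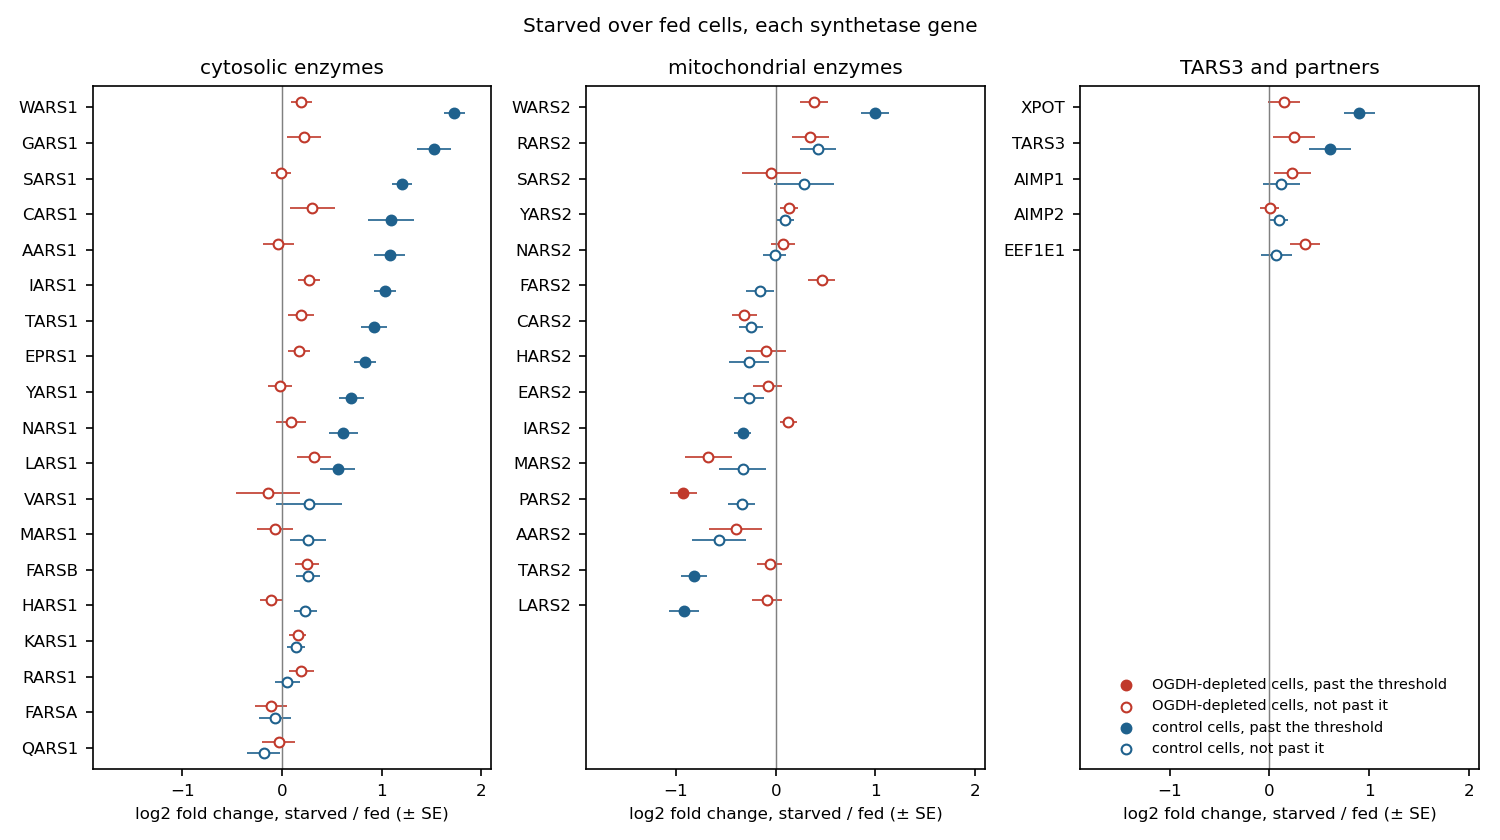
Log2 fold change of starved over fed cells (x axis, points with SE) for the cytosolic enzymes, the mitochondrial enzymes, and TARS3 with the partners, in OGDH-depleted cells (red, upper point of each gene) and control cells (blue, lower point); filled points passed the adjusted p threshold of 0.05. In control cells 11 cytosolic enzymes lie to the right of 0 as filled points, and in OGDH-depleted cells the only filled point is PARS2 at -0.93.

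Median transcript GC content differed between these calls, but the ranges overlapped. The 14 members that rose in starved control cells had a median GC content of 44.8% (40.8% to 55.7%). It was 50.8% in the 3 that fell (43.8% to 54.6%) and 50.7% in the 22 that did not pass (36.3% to 62.6%). The median was 48.6% over the cytosolic enzymes, 51.2% over the mitochondrial enzymes and 47.9% over all tested genes with a value. When each library's trend with GC content was taken out as an offset, 13 cytosolic enzymes were called higher and 0 lower, and 3 mitochondrial enzymes were called higher and 5 lower, while 44.3% of all tested genes were called. With the GC slope of each library as a covariate, centred within groups, 15 cytosolic enzymes were called higher and 1 lower, and 3 mitochondrial enzymes were called higher and 9 lower, while 61.9% of all tested genes were called. MARS1 was called higher in both of these fits. Its log2 fold change was 0.36 with the offset and 0.26 with the covariate (edgeR adjusted p = 0.0188 and 9.12e-05). Being centred within groups, the covariate takes up spread within a group and leaves any GC difference between groups in place. The MARS1 value was likewise 0.26 in the fit without it, so the covariate fit does not correct that value for GC content.

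In OGDH-depleted cells, starvation raised 0 of 19 cytosolic enzymes and lowered 0 (edgeR quasi-likelihood test), while 2.42% of all tested genes rose and 4.76% fell. At an unadjusted p under 0.05 there was 1 cytosolic enzyme, IARS1. In 7 cytosolic enzymes the starved libraries all lay above the fed ones, as in 20.6% of all tested genes. The median log2 fold change of the class was 0.16 and its range was -0.14 to 0.32. DESeq2 also called 0 cytosolic enzymes, whereas the fit with the GC slope covariate called 10 higher, GARS1 among them at 0.21, and called 48.8% of all tested genes, against 7.18% in the fit with no such term. Without the 3 libraries that stand apart, 0 cytosolic enzymes were called, 2 mitochondrial enzymes (FARS2 at 0.56 and WARS2 at 0.26) were called higher and 3 lower, and 17.6% of all tested genes were called. The single member called was PARS2 (chr1:54756898-54764523, minus strand), the mitochondrial prolyl-tRNA synthetase. PARS2 had 7.33, 6.91 and 6.11 CPM in starved OGDH-depleted libraries, against 11.8, 14.5 and 12.4 CPM in fed ones, and 9.20, 9.40 and 11 CPM in starved control, against 13.5, 11 and 13 CPM in control libraries. It fell by 0.93 on the log2 scale (SE 0.13, adjusted p = 0.00226), and in control cells its value of -0.34 did not pass (adjusted p = 0.069). FARS2, the mitochondrial phenylalanyl-tRNA synthetase, had 14, 14.1 and 10.7 CPM in starved OGDH-depleted libraries, against 10.05, 9.45 and 8.70 CPM in fed ones. FARS2 had 8.59, 9.89 and 9.89 CPM in starved control libraries, against 9.67, 10.1 and 11.8 CPM in control libraries. Its log2 fold change of 0.46 in OGDH-depleted cells had an adjusted p of 0.068 in edgeR and of 0.026 in DESeq2.

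The difference between the 2 starvation responses was tested as an interaction, the log2 fold change in OGDH-depleted cells minus that in control cells. It was lower than 0 for 8 cytosolic enzymes and XPOT and higher than 0 for 3 mitochondrial enzymes, against 8.95% and 8.30% of all tested genes. The cytosolic enzymes were WARS1, GARS1, SARS1, AARS1, IARS1, TARS1, YARS1 and EPRS1, with values of -1.54 to -0.66. The mitochondrial ones were LARS2 (0.84), TARS2 (0.76) and IARS2 (0.46). For WARS1 the response was smaller by 1.54 ± 0.15 on the log2 scale (value -1.54, edgeR adjusted p = 4.82e-05), and for LARS2 it was higher by 0.84 ± 0.21 (adjusted p = 0.0179). CARS1, NARS1 and LARS1 rose in control cells but their interaction values of -0.79, -0.53 and -0.23 did not pass (adjusted p = 0.12, 0.11 and 0.59). Values of 3 mitochondrial enzymes came close without passing: WARS2 (-0.61, adjusted p = 0.057), PARS2 (-0.59, adjusted p = 0.054) and FARS2 (0.61, adjusted p = 0.051). The calls of 3 members were lost when single libraries were left out: TARS1 without 3 of the 12 (control replicate 3, OGDH-depleted replicates 1 and 2; -0.72 to -0.68, adjusted p = 0.051 to 0.054), IARS2 without 5 (0.42 to 0.45, adjusted p = 0.052 to 0.070) and XPOT without 9 (-0.77 to -0.65, adjusted p = 0.070 to 0.090). Without the 3 libraries that stand apart, 11 cytosolic enzymes were lower and 2 higher, FARSA (0.33) and AIMP1 (-0.40) changed sign and passed, and 43% of all tested genes were called, against 17.3% with all libraries.

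**Figure D3:**
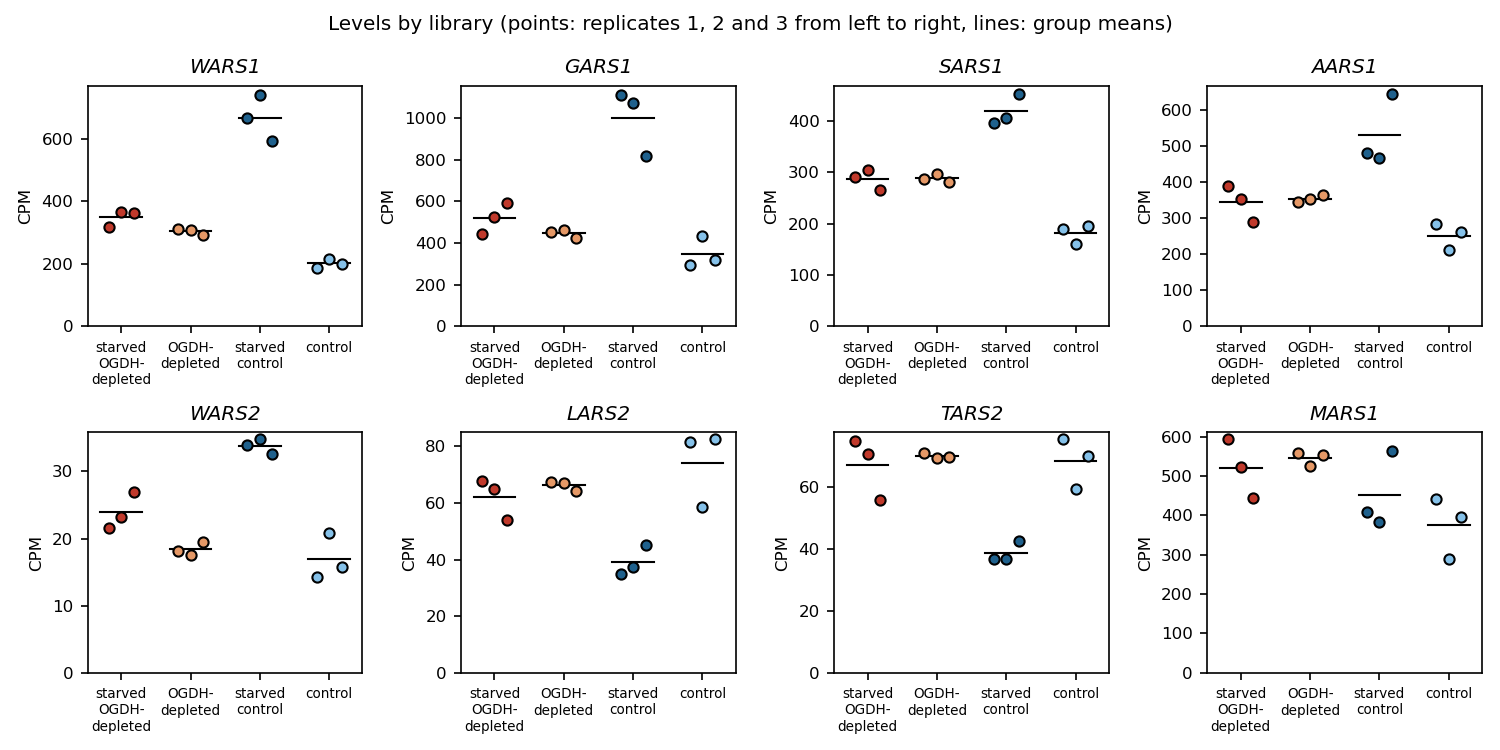
CPM (y axes) of WARS1, GARS1, SARS1, AARS1, WARS2, LARS2, TARS2 and MARS1 in each library of the 4 groups (x axis); points are replicates 1, 2 and 3 from left to right and lines are group means. WARS1 reaches 593 to 741 CPM in starved control libraries, against 188 to 217 CPM in control libraries, and LARS2 and TARS2 show the opposite order.

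With glucose present, OGDH-depleted cells held more SARS1 and WARS1 than control cells. These were 2 of 19 cytosolic enzymes; 0 mitochondrial enzymes were called, and of all tested genes 1.59% were higher and 1.45% lower, 3.04% in all. In the fed libraries listed above, SARS1 lay at 281 to 297 CPM in OGDH-depleted cells, against 161 to 196 CPM in control cells (log2 fold change 0.67 ± 0.10 SE, edgeR adjusted p = 0.00537). WARS1 lay at 292 to 313 CPM in OGDH-depleted cells, against 188 to 217 CPM in control cells (log2 fold change 0.60 ± 0.11 SE, adjusted p = 0.0127). The WARS1 call was lost without control replicate 1 or 3 or OGDH-depleted replicate 1 or 2, with log2 fold changes of 0.56 to 0.59 and adjusted p = 0.055 to 0.073. In 7 cytosolic enzymes the 3 OGDH-depleted libraries all lay above the 3 control libraries, which held for 14.2% of all tested genes, and 7 had an unadjusted p under 0.05. The median log2 fold change was 0.26 over the cytosolic and 0.03 over the mitochondrial enzymes, beside -0.01 over all tested genes. Without the 3 libraries that stand apart 9 cytosolic enzymes were called higher, with 10.8% of all tested genes called, and with the GC offset 7, with 7.54% called. Without control replicate 2 alone, 2 cytosolic enzymes were called higher, with 2.09% of all tested genes called.

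Without glucose, WARS1 and SARS1 were lower in OGDH-depleted than in control cells, opposite to their order with glucose. OGDH-depleted cells held less of 9 of 19 cytosolic enzymes than control cells, and more of 0; among 15 mitochondrial enzymes 4 were higher and 2 lower. Of all tested genes, 13.7% were higher and 15% lower, 28.7% in all. The largest cytosolic differences were those of GARS1 (-0.94 ± 0.17 SE, edgeR adjusted p = 0.00156) and WARS1 (-0.94 ± 0.11 SE, adjusted p = 7.01e-05). TARS1 (-0.67), AARS1 (-0.62), IARS1 (-0.57), SARS1 (-0.55), EPRS1 (-0.38), YARS1 (-0.37) and HARS1 (-0.36) were also lower. In 9 of the 19 cytosolic enzymes the starved OGDH-depleted libraries lay below all starved control libraries, against 19.6% of all tested genes. These were the called genes, chosen from the same libraries, so the lack of overlap is not separate support for the calls. TARS2 (0.79 ± 0.13 SE, adjusted p = 0.000829) and LARS2 (0.67 ± 0.15 SE, adjusted p = 0.00574) were higher, at 55.9 to 74.8 and 54.0 to 67.7 CPM in starved OGDH-depleted libraries, against 36.6 to 42.6 and 35.0 to 45.1 CPM in starved control libraries. FARS2 (0.45) and IARS2 (0.31) were higher as well, while PARS2 (-0.54) and WARS2 (-0.50) were lower. Without the 3 libraries that stand apart, 14 cytosolic enzymes were called lower and 3 higher (FARSA at 0.43, MARS1 at 0.48 and QARS1 at 0.62), and 8 mitochondrial enzymes were called higher and 3 lower, while 52.6% of all tested genes were called, against 28.7% with all libraries.

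Several of these smaller differences rested on single libraries. AARS1 (-0.49) and PARS2 (-0.44) missed the threshold without starved OGDH-depleted replicate 3, with adjusted p = 0.063 and 0.060 in edgeR. EPRS1 (-0.37 to -0.35, adjusted p = 0.062 to 0.083), WARS2 (-0.49 to -0.43, adjusted p = 0.055 to 0.077) and FARS2 (0.39 to 0.48, adjusted p = 0.056 to 0.11) each missed it without any one of replicates 1 and 2 of the starved groups. IARS2 (0.27 to 0.28, adjusted p = 0.070 to 0.072) missed it without starved OGDH-depleted replicate 1 or starved control replicate 2. HARS1 was lost without 6 of the 12 libraries (-0.38 to -0.28, adjusted p = 0.051 to 0.15) and YARS1 without 10 (-0.42 to -0.25, adjusted p = 0.053 to 0.20).

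**Figure D4:**
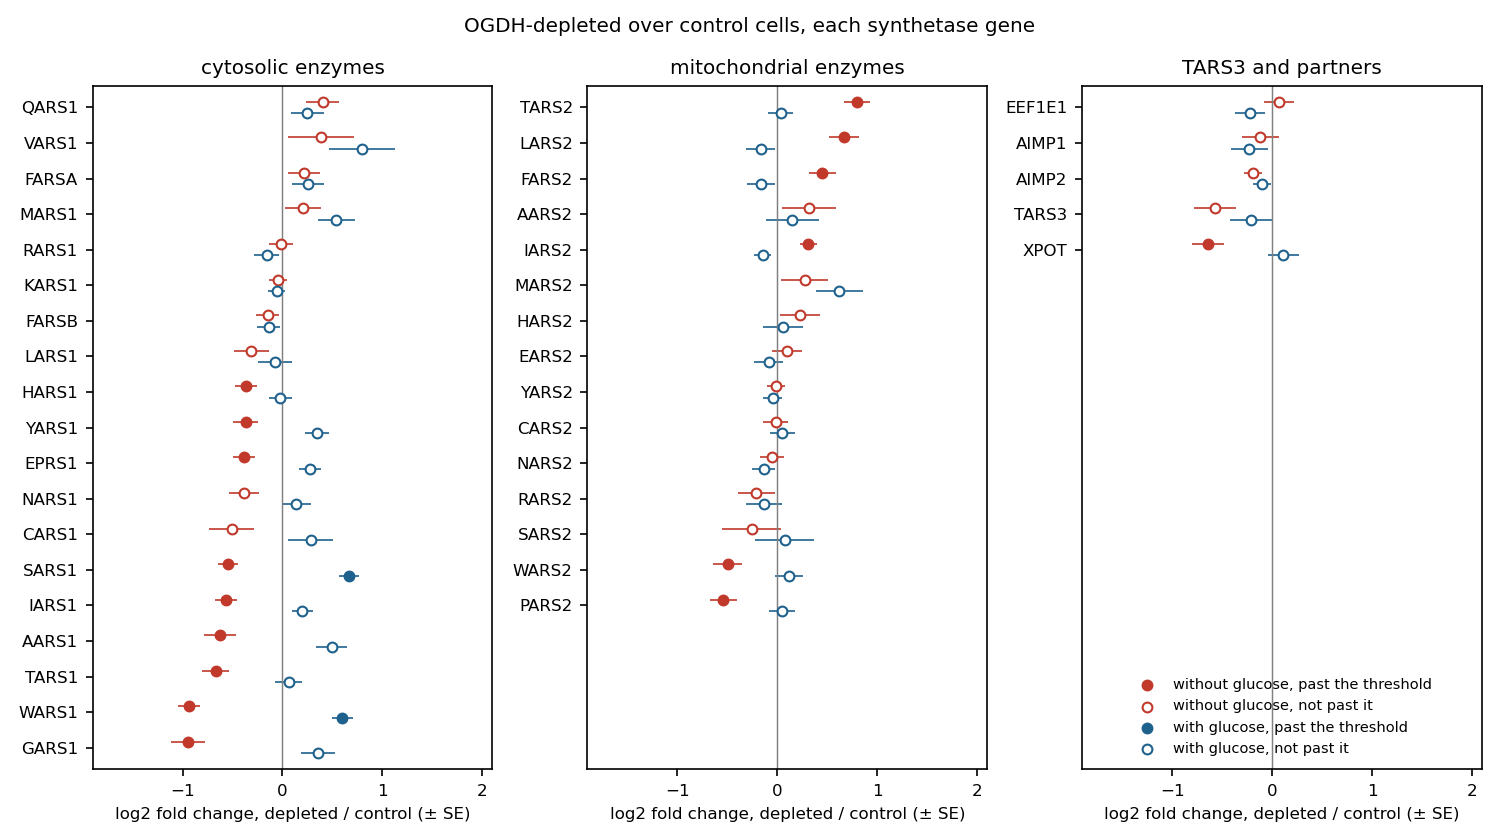
Log2 fold change of OGDH-depleted over control cells (x axis, points with SE) for the same genes, without glucose (red, upper point of each gene) and with glucose (blue, lower point); filled points passed the adjusted p threshold of 0.05. Without glucose 9 cytosolic enzymes lie to the left of 0 as filled points, and with glucose SARS1 and WARS1 lie to the right at 0.67 and 0.60.

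Setting each cytosolic enzyme beside the mitochondrial enzyme for the same amino acid gave 16 pairs with values. EPRS1 was set against both EARS2 and PARS2, and FARS2 against both FARSA and FARSB, so the pairs are not all separate. Under starvation of control cells the cytosolic enzyme had the greater log2 fold change in 15 of 16 pairs, with a median difference of 0.83. In 3 pairs the cytosolic enzyme rose and the mitochondrial one fell: TARS1 (0.92) with TARS2 (-0.82), LARS1 (0.56) with LARS2 (-0.92), and IARS1 (1.04) with IARS2 (-0.33). RARS1 (0.05) with RARS2 (0.43) was the exception. Under starvation of OGDH-depleted cells the cytosolic enzyme was the greater in 10 of 16 pairs and the median difference was 0.09. For OGDH loss the cytosolic enzyme was the greater in 13 of 16 pairs with glucose (median difference 0.25) and in 2 of 16 without it (median difference -0.46). Comparisons of this kind share libraries, so their pair counts are given side by side only.

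**Figure D5:**
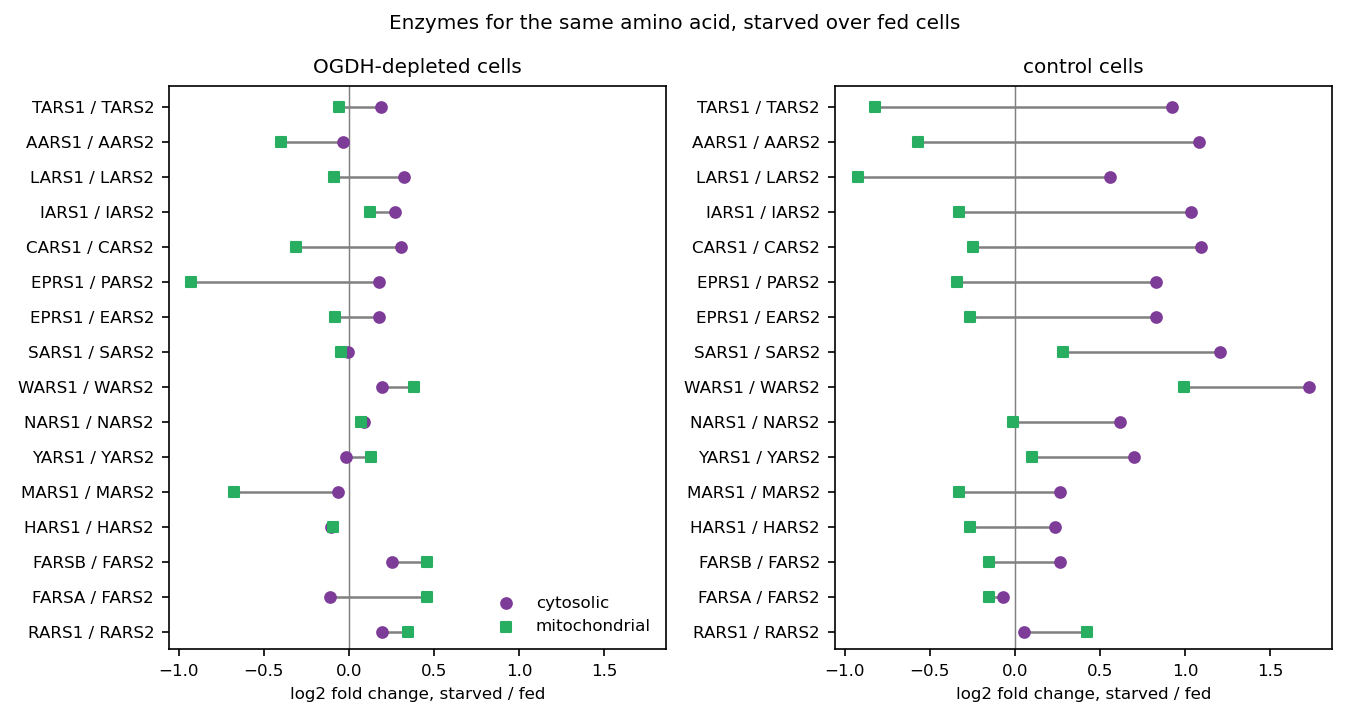
Log2 fold change of starved over fed cells (x axis) for cytosolic enzymes (purple circles) and mitochondrial enzymes (green squares) of the same amino acid, joined by lines, in OGDH-depleted cells (left) and control cells (right). In control cells the circle lies to the right of the square in 15 of 16 pairs, against 10 of 16 in OGDH-depleted cells. The values of EPRS1 and FARS2 are repeated across pairs.

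The histidine pair lies head to head, with HARS1 at chr5:140673035-140691537 on the minus strand and HARS2 at chr5:140691430-140699305 on the plus strand. HARS1 had 220, 211 and 249 CPM in starved control libraries, against 218, 167 and 193 CPM in control libraries, and 189, 178 and 162 CPM in starved against 187, 185 and 197 CPM in fed OGDH-depleted libraries. HARS2 had 32.3, 34.1 and 49.4 CPM in starved control libraries, against 54.8, 36.4 and 48.2 CPM in control libraries, and 53.8, 45.3 and 36.4 CPM in starved against 48.2, 43.7 and 53.1 CPM in fed OGDH-depleted libraries. Starved and fed libraries overlapped for both genes in both kinds of cell. Of the exon bases, 8.46% in HARS1 and 6.99% in HARS2 are shared with other names, each other among them, and fragments there were left out.

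Among the partners, XPOT (chr12:64404392-64451125, plus strand), the tRNA exporter, rose in starved control cells. It had 569, 607 and 449 CPM in starved control libraries, against 247, 356 and 266 CPM in control libraries (log2 fold change 0.90 ± 0.16 SE, adjusted p = 0.00111). In OGDH-depleted cells XPOT had 303, 343 and 395 CPM starved, against 308, 326 and 305 CPM fed, and without glucose it was lower in OGDH-depleted than in control cells (log2 fold change -0.64, adjusted p = 0.0105). The 3 scaffolds of the multi-synthetase complex did not pass in any of the 5 comparisons. AIMP1 had 91.0, 93.3 and 64.9 CPM in starved control libraries, against 66.2, 93.0 and 70.1 CPM in control libraries, and 64.7, 69.8 and 95.1 CPM in starved against 63.1, 64.4 and 68.1 CPM in fed OGDH-depleted libraries. AIMP2 had 79.5, 78.9 and 69.6 CPM in starved control libraries, against 67.7, 73.8 and 72.0 CPM in control libraries, and 64.5, 71.6 and 63.6 CPM in starved against 65.7, 70.4 and 63.1 CPM in fed OGDH-depleted libraries. EEF1E1 had 7.91, 7.36 and 6.35 CPM in starved control libraries, against 6.66, 7.18 and 6.74 CPM in control libraries, and 7.10, 6.75 and 8.80 CPM in starved against 6.85, 4.99 and 5.79 CPM in fed OGDH-depleted libraries. Starved and fed libraries overlapped for all 3 scaffolds in both kinds of cell, though without the 3 libraries that stand apart AIMP1 was called higher in starved control cells (0.43). In addition, 29.1% of the exon bases of AIMP2 and 18.8% of those of EEF1E1 are shared with other names.

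TARS3, the additional threonyl-tRNA synthetase gene, was much less abundant than TARS1. It had 19.2, 22.4 and 13.7 CPM in starved control libraries, against 10.4, 15.5 and 10.3 CPM in control libraries, and 10.6, 12.3 and 14.2 CPM in starved against 10.8, 11.2 and 9.18 CPM in fed OGDH-depleted libraries. The groups overlapped in both kinds of cell. TARS3 was called higher in starved control cells (log2 fold change 0.61 ± 0.21 SE, edgeR adjusted p = 0.0419), but the call was lost without any of 8 of the 12 libraries, with log2 fold changes of 0.45 to 0.61 and adjusted p = 0.053 to 0.16.

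The valine enzymes could not be read reliably. VARS2 had 0 counts in all 12 libraries, where a count of 0 allows up to 0.112 to 0.168 CPM (3 counts per library, counting error only), and 63% of its exon bases are shared with another name. VARS1 had 5.56 to 17.2 CPM over the 12 libraries and passed in 0 of the 5 comparisons. Both lie in the MHC region of chromosome 6, where 41 of 121 protein-coding names within 1 Mb of them had 0 counts (33.9%), against 1701 of 19624 elsewhere (8.67%). SARS2, the mitochondrial seryl-tRNA synthetase, shares 48.2% of its exon bases with another name and had 4.54 to 11.7 CPM over the 12 libraries.

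Genes that act with the synthetases gave a mixed picture. The integrated stress response is the programme that GCN2 and other eIF2-alpha kinases feed. Of 12 of its genes, 10 rose in starved control cells, against 17% of all tested genes. Among them DDIT3 rose by 3.70, CEBPG by 2.29, ATF3 by 2.73, ASNS by 1.92 and ATF4 by 0.63 on the log2 scale. In starved OGDH-depleted cells 1, ATF3, rose (by 1.61), against 2.42% of all tested genes. DDIT3 had 23.7, 23.2 and 18.3 CPM in starved OGDH-depleted and 17.3, 14.1 and 13.7 CPM in OGDH-depleted libraries, and 154, 161 and 199 CPM in starved control, against 14.1, 11 and 14.5 CPM in control libraries. With glucose, 6 of the same 12 genes were higher in OGDH-depleted than in control cells, against 1.59% of all tested genes. Without glucose 7 were lower, against 15% of all tested genes. EIF2AK4, which encodes GCN2, fell in starved control cells (log2 fold change -0.44 ± 0.08 SE, edgeR adjusted p = 0.0016). Of 20 mitochondrial translation factors and tRNA modifiers, 4 rose and 4 fell in starved control cells, shares near those of all tested genes (17% and 17.5%), and 0 passed in starved OGDH-depleted cells. By value, the methionyl-tRNA formyltransferase MTFMT fell by 0.73 and the tRNA-modifying GTPase GTPBP3 fell by 1.07, while its partner MTO1 rose by 0.61 on the log2 scale. Of 6 tested cytosolic elongation factors, EEF1B2 rose (0.34), and of 8 genes of cytosolic tRNA handling, PSTK (0.67) and DTD1 (0.44) rose in starved control cells. Since 17% of all tested genes rose, counts in lists this short are given as a description only. PSTK phosphorylates seryl-tRNA on the way to selenocysteine, and DTD1 removes D-amino acids from mischarged tRNAs.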

How the data were processed

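RNA from 12 samples of the A375 cell line, extracted with trizol per the labels' protocols, was sequenced. The deposited values are whole-number counts of read pairs per gene name, made with featureCounts 2.0.1 per the file headers (exons grouped by gene name, unstranded, pairs with multiple alignments or overlapping several names left out). The submitters' processing notes name Subread and hg38, and aligner settings are not given in those sources.

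Counts were fitted with edgeR 4.0.16 in R 4.3.3 (quasi-likelihood test, TMM scaling, filterByExpr with a minimum count of 10, one mean for each of the 4 groups). P-values were adjusted by Benjamini-Hochberg over all 18526 tested names, with a threshold of 0.05, and SE is the log2 fold change divided by the square root of F. CPM uses the summed counts of the 18526 tested names in each library, multiplied by TMM factors of 0.828 to 1.10. CPM per kb divides this by the deposited exon length. The count floor covers counting error only. Strand was not used in counting, so reads of overlapping antisense names cannot be told apart.

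The members, the gene lists and the tests were chosen with earlier results of these data known. The genes given in every library were, for each comparison and class, the 5 largest changes that passed, the 3 smallest in starved control cells for each class, and GARS1, KARS1, HARS1, HARS2, QARS1, EPRS1, XPOT and the scaffolds. MARS1 was added after its values were seen, as were the ranges of VARS1 and SARS2. Nothing in the labels tells if replicate libraries stem from separate cultures; the spread behind each p-value is therefore that of these libraries and could be technical. Replicates of a group differed by more than sampling noise (chi-square per degree of freedom 3.76 to 154 over genes). Alternatives were DESeq2 1.42.0, other scaling, no low-count filter, only the compared groups, a replicate block and a 1.5-fold threshold. A GC offset, a GC slope covariate centred within groups, and leaving out libraries were also used. Protein sequences were not analysed here.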

Additional observations from a re-analysis of the deposited data

Results flagged for a closer look

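For 12 members the response to starvation differed between OGDH-depleted and control cells by the test of the difference itself (edgeR interaction term, log2 fold change in OGDH-depleted minus that in control cells, n = 3 libraries in each group). The response was lower in OGDH-depleted cells for 9 of them. WARS1 differed by -1.54 (adjusted p = 4.82e-05), GARS1 by -1.30 (adjusted p = 0.00317), SARS1 by -1.21 (adjusted p = 0.000183) and AARS1 by -1.12 (adjusted p = 0.00509). Smaller differences were those of IARS1 (-0.77), XPOT (-0.76), TARS1 (-0.73), YARS1 (-0.71) and EPRS1 (-0.66). The response was higher in OGDH-depleted cells for 3 mitochondrial enzymes, LARS2 (0.84), TARS2 (0.76) and IARS2 (0.46). Of all tested genes, 8.95% had a lower and 8.30% a higher response in OGDH-depleted cells. Starved control replicate 3 and control replicate 2, whose GC slopes are opposite in sign to the other libraries of their groups, enter every one of these values. So does starved OGDH-depleted replicate 3, with a GC slope of -0.26 against -0.056 and 0.067 in the other libraries of its group. The part of these 3 libraries in the differences was not tested beyond the fits without them. The calls of TARS1, IARS2 and XPOT were lost without 3, 5 and 9 of the 12 libraries, each left out singly.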

How the results depend on the processing

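Counts are of the 39 tested members, with 14 higher and 3 lower in starved control cells, 0 and 1 in starved OGDH-depleted cells, 2 and 0 for OGDH loss with glucose, 4 and 12 without it, and 3 and 9 for the interaction. The share of all tested genes called in either direction was 34.5%, 7.18%, 3.04%, 28.7% and 17.3% in the same order. This share changed with the setting and is given beside the member counts below. Above 1.5-fold the member counts were 9 higher and 1 lower in starved control cells, 0 lower in starved OGDH-depleted cells, 0 higher for OGDH loss with glucose, 0 and 1 without it, and 0 and 3 for the interaction. All-gene shares were then 12.3%, 1.19%, 0.151%, 8.92% and 5.83%. Without the 3 libraries that stand apart, 11 members were lower in starved control cells, 2 higher and 3 lower in starved OGDH-depleted cells, 11 and 2 for OGDH loss with glucose, 11 and 21 without it, and 9 and 16 for the interaction. In that fit the all-gene shares were 60.5%, 17.6%, 10.8%, 52.6% and 43%, and FARSA (0.33) and AIMP1 (-0.40) changed sign in the interaction. The GC offset gave 5 lower in starved control cells, 1 higher in starved OGDH-depleted cells and 7 higher for OGDH loss with glucose. It called 44.3%, 10.9% and 7.54% of all tested genes there. The GC slope covariate, added after seeing the data, gave 10 lower in starved control cells, 17 higher and 4 lower in starved OGDH-depleted cells, 15 and 3 for OGDH loss with glucose, 10 and 20 without it, and 5 and 19 for the interaction. It called 61.9%, 48.8%, 35%, 57.5% and 46.8% of all tested genes. DESeq2 called 1 higher in starved OGDH-depleted cells, with 11% of all tested genes called. A fit of only the compared groups gave 2 lower in starved OGDH-depleted cells (10.7% of all tested genes called). It gave 2 higher for OGDH loss without glucose (22.5% called), and has no value for the interaction. Without the low-count filter, 2 were higher and 7 lower for OGDH loss without glucose, with 12.4% of all tested genes called. Apart from what follows from the 1.5-fold threshold and from fewer samples, the cause was not tested.

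Leaving out 1 library at a time gave 12 to 16 higher and 2 to 6 lower in starved control cells, 0 to 1 higher and 1 lower in starved OGDH-depleted cells, 1 to 2 higher and 0 lower for OGDH loss with glucose, 2 to 5 higher and 8 to 14 lower without it, and 2 to 4 higher and 7 to 11 lower for the interaction. All-gene shares were 26.6% to 39.6% in starved control and 3.06% to 10.3% in starved OGDH-depleted cells. For OGDH loss they were 0.904% to 3.33% with glucose and 21.2% to 32.5% without it, and for the interaction 12.1% to 17.5%. The largest count of lower members in starved control cells, 6, came without control replicate 2.

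No pairing by replicate number held across the comparisons. Correlations of same-numbered deviations in the starvation of control cells were -0.55, 0.70 and 0.56, and unlike-numbered ones ran from -0.84 to 0.79. In the starvation of OGDH-depleted cells the same-numbered values were 0.03, 0.12 and -0.17. They were 0.03, 0.25 and 0.13 for OGDH loss with glucose and -0.57, -0.03 and -0.79 without it. A replicate block gave 14 higher and 3 lower in starved control cells, 0 and 1 in starved OGDH-depleted cells, 2 and 0 for OGDH loss with glucose, 3 and 11 without it, and 3 and 9 for the interaction. With it 32.6%, 5.46%, 1.85%, 26.6% and 14.9% of all tested genes were called. YARS1 and FARS2 missed the threshold under the block without glucose.

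Depth limits precision for members with few counts: the lowest library count was 0 for VARS2, 105 for SARS2, 108 for VARS1 and 113 for EEF1E1.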

Other observations

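Of the 20 mitochondrial translation factors and tRNA modifiers, 2 were higher and 2 lower in starved OGDH-depleted than in starved control cells, against 13.7% and 15% of all tested genes. For the interaction 1 was higher and 0 lower, against 8.30% and 8.95%, so the list's shares were at or below those of all genes. MTFMT, which formylates the initiator methionyl-tRNA of mitochondria, was higher in starved OGDH-depleted than in starved control cells (log2 fold change 0.56), and its interaction value of 0.66 passed. GTPBP3 was higher as well (0.77), while MTO1, with which it modifies mitochondrial tRNAs, was lower. EIF2AK4 was higher in starved OGDH-depleted than in starved control cells by 0.53 on the log2 scale, and its interaction value was 0.54 (edgeR adjusted p = 0.0079), opposite in sign to that of the stress response genes called. These lists were written with earlier results known, and the values are given as a description.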
